A study of Rattus norvegicus with 2 samples.

Results

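The amino acid transporters of A7r5 cells were described in cells that overexpressed the glucose transporter GLUT1 and in their controls. A7r5 is an established rat line with smooth muscle features that was derived from embryonic aorta. Cells of both groups were infected for 72 hours with an adenovirus at a multiplicity of infection of 10, counting 100 viral particles to a cell as a multiplicity of 1. The arrayed cells were kept in medium with 5.5 mM glucose. The control group received the empty virus, and the GLUT1 group received the virus with the human GLUT1 cDNA. In each group the RNA of 3 days was pooled into 1 sample and read on 1 array, so the study holds 2 arrays and no replicate of either group. No difference reported here has a replicate check, and no test was made.

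The members were 10 carrier genes listed by name: Slc7a5, Slc3a2, Slc7a1, Slc7a7, Slc1a1, Slc1a3, Slc1a4, Slc1a5, Slc38a1 and Slc38a2. Every probe set annotated with 1 of these as its single gene was taken. This gave 16 of the 15923 probe sets on the array, for 9 of the 10 genes and out of 10411 named genes. Slc1a4 was not named by a usable probe set and was not analysed here. Slc7a5 itself was chosen as the only bright gene beyond 2-fold between these arrays, so its values and those of the other members from the same comparison are a description and support nothing by themselves.

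Slc7a5 encodes LAT1, the light chain of an exchanger that brings large neutral amino acids such as leucine, phenylalanine and tryptophan into the cell and lets other amino acids, among them glutamine, out. LAT1 is linked by a disulfide bridge to the glycoprotein 4F2hc, the product of Slc3a2, which brings it to the plasma membrane and also serves several other light chains. Leucine that enters by this route is known to activate the growth kinase complex mTORC1, and the same carrier moves thyroid hormones. Sodium-coupled carriers of the Slc38 family load the cell with glutamine and other small neutral amino acids, and Slc1a5 exchanges such amino acids. Slc1a1 and Slc1a3 carry glutamate, and Slc7a1 brings in arginine and lysine.

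The 250 bases before the annotated start of Slc7a5 and of its partner Slc3a2 are shown because these 2 chains form 1 transporter while their intensities differed unequally between the arrays. Both come from RefSeq on the rat assembly GRCr8 and are written on the gene's own strand, 5′ to 3′. The Slc7a5 stretch is chr19:66872413-66872662 on the minus strand, and that of the first of 2 annotated Slc3a2 starts is chr1:215048065-215048314 on the minus strand. Capitals mark matches, on either strand, to the E-box CACGTG, which Myc can bind, and to the GC box GGGCGG, which Sp1 can bind.
Slc7a5: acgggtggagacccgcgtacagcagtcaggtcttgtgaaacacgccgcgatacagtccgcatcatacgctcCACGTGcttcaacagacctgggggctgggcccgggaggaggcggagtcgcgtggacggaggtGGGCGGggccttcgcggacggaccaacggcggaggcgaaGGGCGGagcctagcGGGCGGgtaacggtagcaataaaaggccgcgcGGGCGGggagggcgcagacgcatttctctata
Slc3a2: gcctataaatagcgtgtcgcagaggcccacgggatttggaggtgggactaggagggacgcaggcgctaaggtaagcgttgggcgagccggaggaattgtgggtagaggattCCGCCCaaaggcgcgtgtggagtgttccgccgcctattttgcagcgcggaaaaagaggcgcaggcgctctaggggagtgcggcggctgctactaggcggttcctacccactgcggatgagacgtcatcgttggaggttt
The Slc7a5 stretch held 1 E-box and 4 GC boxes, and the Slc3a2 stretch held 1 GC box and no E-box. An E-box was found in 5.59% of all 33469 annotated stretches of this length and a GC box in 30.5%. The third motif searched was TGATGNAA, a core of the amino acid response element that ATF4 and C/EBP factors bind. It was not found in the windows of Slc7a5 or Slc3a2 and was found in 3.4% of all stretches. Its letters were found before the starts of Slc7a1, Slc38a1 and Slc1a4. Among the other members an E-box was found before the start of Slc1a4, and a GC box before those of Slc7a1 and Slc38a2. The motifs do not overlap one another in the printed stretches. Of the 10 members 8 had an annotated stretch. A match is a match of letters only, and no binding was measured here.

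All intensities here are the deposited linear values in array units, and a log2 ratio is GLUT1 over control after scaling. Paired values are given with the control first. Values below a floor of 175 were raised to it, and a probe set counted as measured when its mean log2 intensity reached the median of all probe sets, 8.99, or an intensity of 507. Of the 16 transporter probe sets 9 were measured, for 7 genes. Slc7a7 and Slc1a1 had no measured probe set. Passing the filter depends on both arrays, so the 7 genes are not all members.

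The labelled cell type was set against marker genes. Of 14 smooth muscle markers with a probe set, 11 were bright enough to be measured, among them Acta2, the smooth muscle actin, at 16303 and 16687, while Myh11, the smooth muscle myosin heavy chain, lay below the brightness filter at 227 and 228. Of 8 endothelial, 11 leukocyte, 7 epithelial and 11 skeletal muscle markers, 1, 2, 1 and 3 were measured. Of all 10411 named genes 6114 were measured. The measured markers were Esam (endothelial, 584 and 479), C1qb (leukocyte, 1352 and 1014), Cd14 (leukocyte, 1235 and 1398) and Krt8 (epithelial, 6193 and 6500). Those for skeletal muscle were Myh1 (4585 and 3662), Acta1 (2339 and 2240) and Des (743 and 729). Des is also in the smooth muscle list. The markers Pecam1 (endothelial, 26 and 36), Ptprc (leukocyte, 62 and 77), Cdh1 (epithelial, 23 and -16) and Myod1 (skeletal muscle, 58 and 41) lay below the floor on both arrays. They were chosen after their values were seen. Other markers of these lists lay above the floor on both arrays but below the filter. Among them were Cldn5 (endothelial, 402 and 377), Csf1r (leukocyte, 386 and 402) and Myog (skeletal muscle, 281 and 379). Cldn3 (epithelial) was read at 161 and 248, above the floor on the GLUT1 array only. The summed intensities were 87806 and 86683 for smooth muscle, 1835 and 1577 for endothelial, 4894 and 4497 for leukocyte, 6723 and 7258 for epithelial and 8866 and 7908 for skeletal muscle markers, in the control and GLUT1 arrays respectively. Values below the floor entered these sums as deposited. The lists differ in size, and levels of different probe sets cannot be set against each other. Each sum can therefore be compared between the arrays only, not with the sum of another list. The rat probe set of Slc2a1, the gene of GLUT1, was read at 2902 and 3121. The sources used here do not say whether it can bind the human cDNA, so it does not check the labels. The measured markers farthest from 0 in each list were Actg2 at a log2 ratio of -0.21 and Smtn at 0.19 (smooth muscle), Esam at -0.28 (endothelial), C1qb at -0.41 and Cd14 at 0.18 (leukocyte), Krt8 at 0.07 (epithelial) and Myh1 at -0.32 and Acta1 at -0.06 (skeletal muscle). Averaging its probe sets brought Myh1 to 0.0040. The part of these marker differences in the transporter values was not tested.

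Slc7a5 was the only one of the 7 measured members beyond 2-fold, where 0.0164% of the 6114 measured genes were 2-fold or more higher. That share is this gene itself, 1 of 6114. Slc7a5 was chosen on this comparison and the other members were listed with its results known, so nothing is read from the count. The Slc7a5 probe set, 1387280_a_at, was read at 660 in the control and 1643 in the GLUT1 array. The GLUT1 value was 983 units higher, a ratio of 2.49 (log2 ratio 1.32). On the control array 55.8% of probe sets were dimmer than this one, and on the GLUT1 array 76.8% were. In a pool of cells, more cells that express the gene and more mRNA per cell cannot be told apart.

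**Figure D1:**
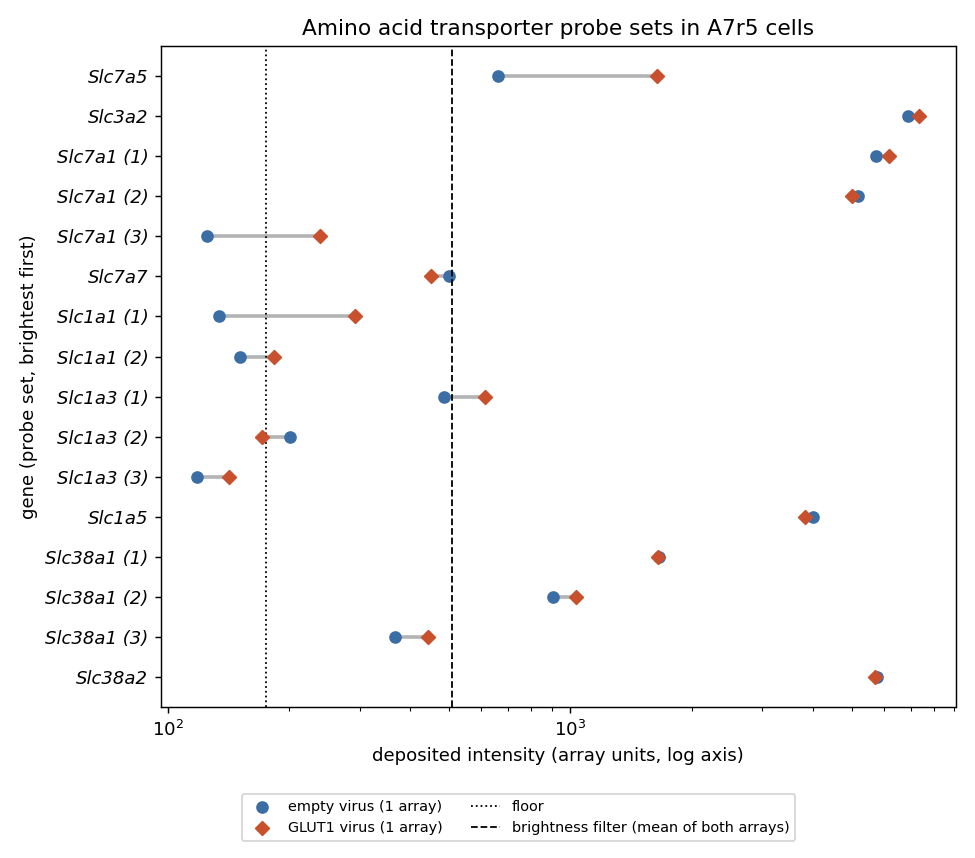
Deposited intensity (array units, log axis) of the 16 transporter probe sets in the empty virus array (circles) and the GLUT1 array (diamonds), with the floor of 175 (dotted) and the brightness filter of 507 (dashed). Slc7a5 stands at 660 and 1643, the other bright probe sets lie close together, and the widest remaining gaps belong to dim probe sets of Slc7a1 and Slc1a1 near the floor.

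The distance of Slc7a5 from probe sets of like brightness was also given by the local spread, the scaled median absolute deviation of log2 ratios in a window of 501 measured probe sets of nearest brightness. For Slc7a5 the local spread was 0.14, and its ratio lay 9.41 local spreads from the local median. The other 500 probe sets of this window had log2 ratios from -0.57 to 0.59, and 2 of them were beyond 0.5 either way. The Slc7a5 probe set stood outside the range of these 500. The gene was chosen on this same ratio, so its place there largely follows from the choice and nothing is read from it. The spread is that of different probe sets on the same 2 arrays, so it holds array noise and real differences together and says nothing of the spread between cultures. Next in rank among measured genes were Sap25 at -0.72 (797 and 483) and Rnd2 at 0.67 (482 and 766), both well short of the 2-fold threshold. Each had 1 value below the filter intensity of 507 and passed through its brighter array. A further measured probe set beyond 2-fold, 1394225_at, was listed without a gene and had a log2 ratio of -1.01.

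**Figure D2:**
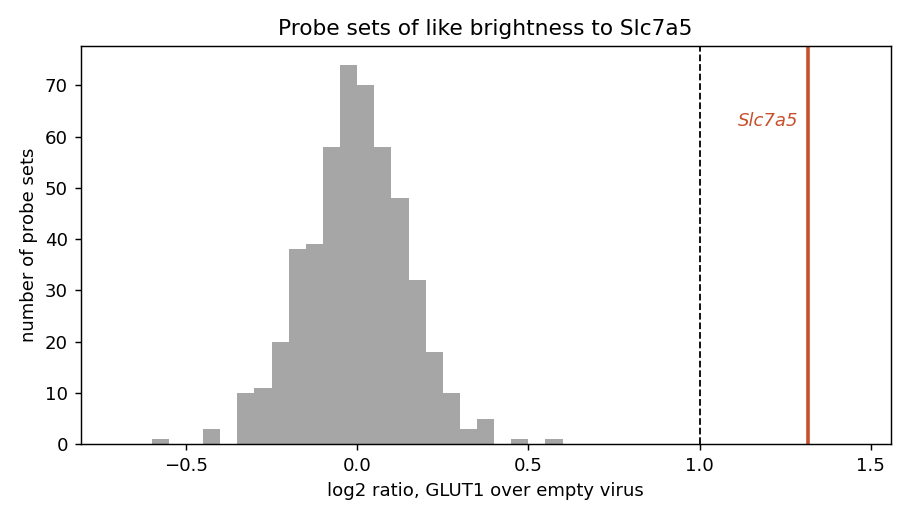
Histogram of log2 ratios (GLUT1 over empty virus) of the 500 measured probe sets nearest to Slc7a5 in brightness, counted in bins of equal width, with Slc7a5 as the solid line and the 2-fold threshold as the dashed line. The 500 values run from -0.57 to 0.59 and Slc7a5 stands at 1.32.

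The heavy chain Slc3a2 was bright on both arrays and nearly equal. Its probe set was read at 6910 in the control and 7364 in the GLUT1 array (log2 ratio 0.09, or 1.12 local spreads). The light chain's log2 ratio exceeded that of the heavy chain by 1.22. Levels of different probe sets cannot be set against each other, so the stoichiometry of the chains is not given by these values.

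Of the other light chains known to pair with 4F2hc, Slc7a6, Slc7a7, Slc7a8 and Slc7a10 had a probe set, and Slc7a11, the chain of the cystine and glutamate exchanger xCT, had none in the annotation used here. Slc7a7, which encodes y+LAT1, the exporter of arginine and lysine in exchange for neutral amino acids, was read at 498 and 449, just below the brightness filter, with a log2 ratio of -0.15. Slc7a6, the related y+LAT2, was measured at 1571 and 1778 (log2 ratio 0.18). Slc7a8, which encodes LAT2, the second large neutral amino acid exchanger, was below the floor on both arrays at 86 and 35. Slc7a10, which encodes the small neutral amino acid exchanger Asc-1, was dim at 277 and 182, with a log2 ratio of -0.60. Among these 4 light chains only Slc7a6 was measured, and it lay 1.45 local spreads from the local median.

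The cationic amino acid carrier Slc7a1, or CAT-1, was read by 3 probe sets. Its bright probe sets were read at 5739 and 6186 and at 5193 and 4994, log2 ratios of 0.11 and -0.05. The third, 1387167_at, was dim at 125 and 239. Its log2 ratio of 0.45 was computed from the floor on the control side. The bright probe sets of this gene therefore pointed opposite ways by small amounts, at 1.17 and -0.63 local spreads.

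Slc1a5 encodes ASCT2, a sodium-dependent exchanger of glutamine, serine, alanine and threonine whose glutamine can be handed on by LAT1. It was read at 4000 and 3817 (log2 ratio -0.07, or -0.72 local spreads). The difference was in the direction opposite to that of Slc7a5 and less than 1 local spread.

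The SNAT carriers bring in small neutral amino acids together with sodium. Slc38a2, which encodes SNAT2, the carrier that cells raise when amino acids run short, was read at 5770 and 5709 (log2 ratio -0.01). Slc38a1, which encodes SNAT1, had 3 probe sets, read at 1664 and 1653, at 906 and 1031 and at 366 and 442. Their log2 ratios were -0.0082, 0.19 and 0.27, and the third lay below the brightness filter. The brightest probe set of Slc38a1 thus showed almost no difference while the dimmer ones were higher on the GLUT1 array. Averaging the probe sets of Slc38a1 moved its log2 ratio to 0.15.

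The glutamate carriers Slc1a3 and Slc1a1 were read near or below the brightness filter. Slc1a3 encodes GLAST, the sodium-coupled glutamate transporter also called EAAT1, and the rat gene table lists GluT-1 among its older synonyms, which does not refer to the glucose transporter. Its brightest probe set was read at 485 and 613 (log2 ratio 0.34, or 1.66 local spreads). The control value lay below the filter intensity of 507, so Slc1a3 passed only through the higher GLUT1 value. Its other probe sets were read at 201 and 171 and at 118 and 142, the first a log2 ratio of -0.20 set by the floor on the GLUT1 side and the second at the floor on both arrays. Averaged over its 3 probe sets, Slc1a3 had a log2 ratio of 0.05 and was no longer among the measured genes. Slc1a1 encodes EAAC1, the glutamate and cysteine transporter also called EAAT3. Its probe sets were read at 134 and 291 and at 151 and 183, with the control below the floor in both. The first had a log2 ratio of 0.74 computed from the floor and a ratio of 2.17 in the deposited values, the second 0.07. A dim probe set had no detection call behind it here, so these values do not show whether the gene was expressed in either pool.

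**Figure D3:**
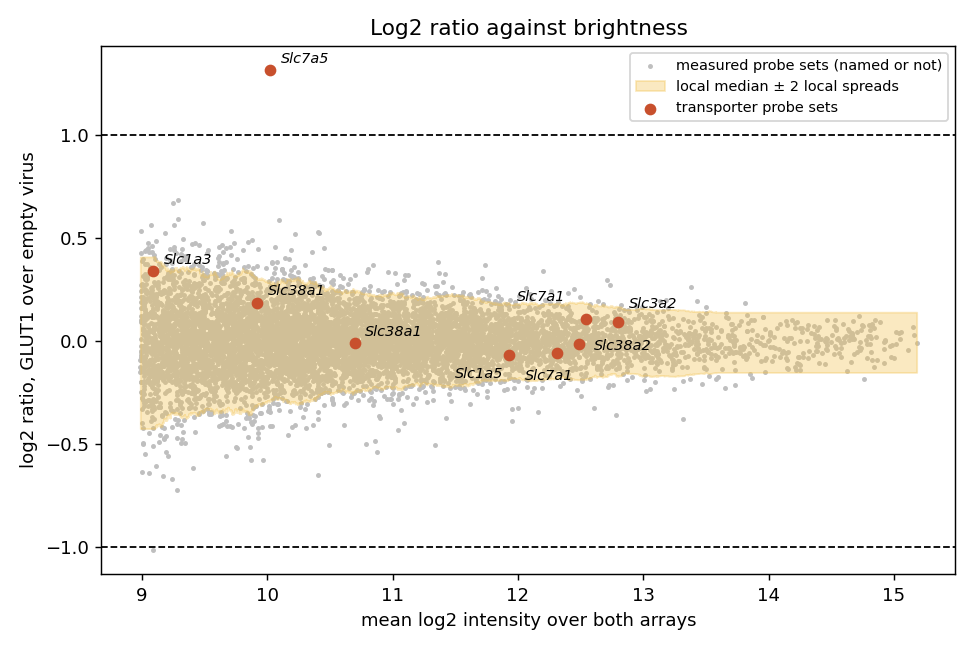
Log2 ratio (GLUT1 over empty virus) against mean log2 intensity for all 7962 measured probe sets (grey), with the band of 2 local spreads around the local median, the 2-fold thresholds (dashed) and the 9 measured transporter probe sets. Slc7a5 at 1.32 lies above the band and the other 8 lie within it, and the grey point at -1.01 belongs to a probe set listed without a gene.

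Across the 9 measured transporter probe sets, 1 lay beyond 2 local spreads, the Slc7a5 probe set, where 5.89% of all measured probe sets did. By gene, 4 of the 7 measured members had a log2 ratio above 0, where 52.2% of measured genes did, and 2, Slc7a5 and Slc1a3 (the latter by its brightest probe set), were beyond 0.25 either way, where 7.49% of measured genes were. Slc7a5 was chosen on this comparison and the other members were listed with its results known, so nothing is read from these shares. Slc1a3 was measured only through its higher GLUT1 value. In rank from the highest log2 ratio of 6114 genes, Slc7a5 was at 1, Slc1a3 at 88, Slc7a1 at 1229, Slc3a2 at 1471, Slc38a1 at 3354, Slc38a2 at 3472 and Slc1a5 at 4456. The median log2 ratio of the 7 was 0.09 and without Slc7a5 it was 0.04, beside 0.0064 over all measured genes. On the deposited scale 10 of the 16 probe sets were higher and 6 lower on the GLUT1 array. Of all probe sets 49.4% were higher.

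Carriers outside the member list were drawn from the amino acid and peptide transporter families. Of 48 such genes 29 had a probe set, and 10 were measured, with a median log2 ratio of -0.0092 and a range from -0.13 to 0.18. Of these 5 were above and 5 below 0, where 52.2% of measured genes were above 0, and none was beyond 2-fold, where 0.0164% of measured genes were. The upper end was Slc7a6. Slc6a6, the taurine transporter, was read at 5696 and 6003 (log2 ratio 0.08), and Slc6a9, the glycine transporter GlyT1, at 4498 and 4586 (log2 ratio 0.03). A dimmer probe set of Slc6a9 was read at 547 and 746 (log2 ratio 0.45), so probe sets of this gene differed, and their average was 0.18.

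At the lower end of these carriers was Slc38a4, the SNAT carrier that also accepts cationic amino acids, at 3637 and 3323 with a log2 ratio of -0.13. Slc15a4, a lysosomal carrier of histidine and peptides, followed at -0.11. Slc7a9, a light chain of the cystine transporter, and Slc38a10 had log2 ratios of -0.07 and -0.06. Slc6a7, the brain proline transporter, at -0.02, Slc3a1, the heavy chain partner of Slc7a9, at 0.0014 and Slc66a1, the lysosomal exporter of cationic amino acids, at 0.05 lay between. Of the other 19 with a probe set, 13 were at the floor on both arrays, among them the glutamate transporter Slc1a2 and the thyroid hormone and aromatic amino acid transporter Slc16a10.

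Genes that stand after the carriers in amino acid use were described by list. Over 9 lists, the other carriers included, 156 genes were measured and the largest absolute log2 ratio was 0.54. None was beyond 2-fold, where 0.0164% of all measured genes were, so nothing is read from that count. For each list the genes above and below 0 are counted. Of all measured genes 52.2% were above 0, and nothing is read from those counts. Leucine sensing and mTORC1 genes had a median of -0.0077 over 31 measured of 36, with 15 above and 16 below 0. The farthest from 0 were Wdr59, a subunit of the amino acid sensing complex GATOR2, at 1147 and 858 with a log2 ratio of -0.42, and Ulk1, the autophagy kinase held down by mTORC1, at 711 and 559 with -0.35. Wdr59 lay -2.73 and Ulk1 -1.94 local spreads from the local median. Such genes were named as the farthest from 0 in their lists, so a large distance largely follows from the choice. Of the genes named from the lists below, Herpud1 (2.36), Vars1 (-2.63), Sars1 (2.05), Ddah1 (-2.004), Ncl (-2.20) and Itga6 (-2.07) also lay beyond 2 local spreads. Of all measured probe sets 5.89% did.

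The amino acid deprivation list, the genes of GCN2 and ATF4, had a median of 0.0068 over 23 measured of 28, with 13 above and 10 below 0. Its farthest members were Herpud1, which takes part in the removal of misfolded proteins from the endoplasmic reticulum, at 0.27 and Ppp1r15a, the phosphatase subunit that ends the eIF2α signal, at -0.15. Atf4 itself was read at 16410 and 16453 and Asns, asparagine synthetase, at 9304 and 9001, named after their values were seen. Aminoacyl-tRNA synthetases, which charge tRNA with the imported amino acids, had a median of 0.02 over 22 measured of 22, with 13 above and 9 below 0. Vars1, for valine, was read at 2041 and 1667 (log2 ratio -0.29), and Sars1, for serine, at 4578 and 5200 (log2 ratio 0.19).

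Branched-chain amino acid breakdown had a median of 0.03 over 19 measured of 25, with 11 above and 8 below 0. Bcat2, the mitochondrial branched-chain aminotransferase, was read at 1047 and 1213 (log2 ratio 0.21), and Mcee at 520 and 596 (log2 ratio 0.20). Glutamine, glutamate and arginine metabolism had a median of -0.06 over 23 measured of 30, with 7 above and 16 below 0. Of all measured genes 52.2% were above 0, and the difference from that share was not tested. Got1, the cytosolic aspartate aminotransferase, stood highest at 1993 and 2486 (log2 ratio 0.32, or 2.93 local spreads). Ddah1, which breaks down the inhibitor of nitric oxide synthase ADMA, had a log2 ratio of -0.25.

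The Myc network had a median of 0.03 over 17 measured of 19, with 11 above and 6 below 0. Mxd3, a Max partner, had a log2 ratio of 0.31 and Ncl, the nucleolar protein nucleolin, -0.17. Myc itself was read at 884 and 991 (log2 ratio 0.17), named after its value was seen. Thyroid hormone handling had a median of 0.08 over 6 measured of 17, with 5 above and 1 below 0. It was led by Dio3, the deiodinase that inactivates thyroid hormone, at 696 and 1008 (log2 ratio 0.54, or 3.22 local spreads). Klf9, a thyroid hormone target, followed with a log2 ratio of 0.18 by its brightest probe set, and averaging took it below the brightness filter. Partners of 4F2hc at the cell surface and integrins had a median of 0.05 over 8 measured of 11, with 5 above and 3 below 0, and Itga6 at -0.34 and Itga3 at 0.11 were farthest from 0.

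**Figure D4:**
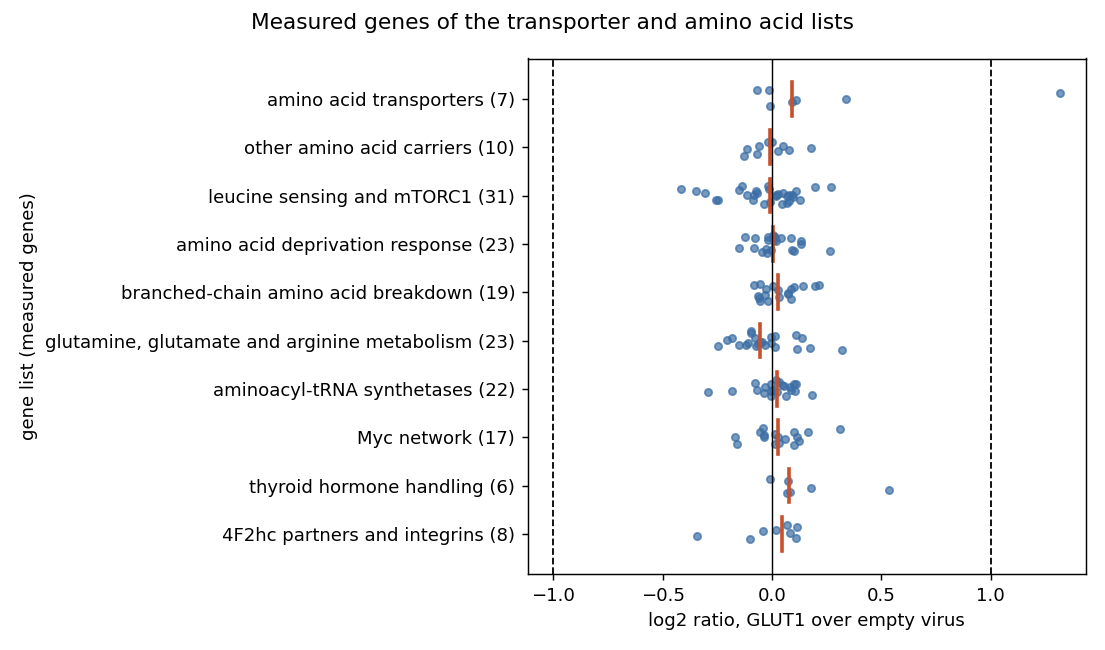
Log2 ratios (GLUT1 over empty virus) of the measured genes of the transporters and of 9 lists, 1 point per gene, with the list median as an upright bar, the number of measured genes in brackets and the 2-fold thresholds dashed; vertical jitter within a row has no meaning. Slc7a5 at 1.32 is the only point beyond a threshold, and the list medians run from -0.06 to 0.09.

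The genes most like Slc7a5 were sought by the absolute difference of log2 ratios over the 2 arrays, among named probe sets above the floor on at least 1 array. The nearest were Hcn4, a pacemaker channel, at 154 and 443, Dync1li1, a dynein light intermediate chain, at 282 and 669, Sdc3, a heparan sulfate proteoglycan, at 210 and 454, Crebzf at 151 and 377 and Slc25a25, a mitochondrial ATP-magnesium carrier, at 157 and 360. Their log2 ratios differed from that of Slc7a5 by 0.024 to 0.28. All 5 lay below the brightness filter, and 3 of them, Hcn4, Crebzf and Slc25a25, were at the floor in the control. With 2 arrays this likeness rests on 1 number per gene.

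The genes beside Slc7a5 in the gene order of GRCr8 were looked up to see whether the difference extended along the chromosome. Of the 5 protein-coding genes on each side, Zcchc14, read at 1045 and 1029, and Zfpm1, read at 658 and 703, were measured, with log2 ratios of -0.02 and 0.10. Fbxo31 lay below the filter at 461 and 335 (log2 ratio -0.46), and Car5a and Mlnr were at the floor on both arrays. Map1lc3b, Jph3, Klhdc4, Banp and Zfp469 had no usable probe set. The genes directly beside Slc7a5 are Klhdc4 and Car5a, and neither was measured. Whether the difference extended along the chromosome therefore cannot be told from these values. Slc38a1, Slc38a2 and Slc38a4 lie next to one another on chromosome 7, and their brightest probe sets had log2 ratios of -0.0082, -0.01 and -0.13.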

How the data were processed

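The authors deposited 1 linear intensity per probe set and array, in whole numbers and with the same median of 508 on both arrays. The sources used here do not state the software, the background correction or how the arrays were equalised, and values already equalised cannot show a change in total mRNA. From these values the GLUT1 array was shifted by 0.0014 log2 units to bring the median log2 ratio of brighter probe sets to 0, intensities at or below the 25th percentile were set to it, and log2 was taken. Probe sets with a mean log2 value at or above the 50th percentile counted as measured. A gene was represented by its brightest probe set, and the call was a 2-fold ratio. Symbols came from the platform annotation, updated by gene ID (GRCr8): 12783 probe sets had 1 gene, 312 several and 2771 none. Python 3.11.15, numpy 2.4.6 and pandas 2.3.3 were used, and the steps were tested on simulated data. With 1 array per group no p-value was computed, and precision is limited by the number of arrays. The members, gene lists, markers and motifs were chosen with earlier results of these data known. Named genes were all members, the measured other carriers, the 2 measured genes of each list with the largest absolute log2 ratio, the 5 nearest to Slc7a5, the 2 next in rank after it, and Slc2a1. Other genes named fall outside this rule and were chosen after their values were seen. They were dim carriers, other cell type markers, chromosomal neighbours, Atf4, Asns, Myc and those under other observations.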

Additional observations from a re-analysis of the deposited data

How the results depend on the processing

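No paired analysis was possible because a group holds a single array, with no replicate number to share. The log2 ratio of Slc7a5 lay between 1.316 and 1.317 under all alternatives in which it was measured. A single probe set stands behind it, so floor, filter and averaging could not alter it, and the deposited values were already equalised, so other scalings could alter it little. The count of 1 measured member beyond 2-fold became 0 when the filter was raised to the 75th percentile of brightness, above the Slc7a5 probe set. It was also 0 at a 3-fold threshold, which Slc7a5 does not reach. Over all measured genes, 1 was 2-fold or more higher and 0 lower in the main setting. With the floor at the 40th percentile 1 was higher and 1 lower, and with no filter 5 were higher and 4 lower. The median log2 ratio of the measured members, 0.093, became -0.0082 over the 5 members that the 75th percentile filter keeps. Averaging probe sets moved Slc38a1, Slc6a9 and Myh1 beyond their local spread, and the other 264 values of 41 named genes moved by less. Under averaging Slc1a3, at 0.05, Itga6 and Klf9 fell below the brightness filter and are not among the values of that setting. This left 6 measured members.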

Other observations

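Several genes of the same lists, and a gene near Slc3a2, lay below the brightness filter. They were named after their values were seen. Rxra, the retinoid receptor that partners the thyroid hormone receptors, was read at 163 in the control, below the floor, and at 341 in the GLUT1 array. Mycn, the Myc relative of early development, was read at 336 and 536 (log2 ratio 0.68). Acadsb, a dehydrogenase of isoleucine breakdown, was read at 367 and 204 (log2 ratio -0.85). Slc38a5, a carrier of glutamine and histidine, was read at 467 and 337 (log2 ratio -0.47). Slc22a8, an organic anion transporter that lies near Slc3a2 on chromosome 1, was read at 635 and 314 (log2 ratio -1.01). No local spread was computed at this brightness. Without a filter, 9 of all 10411 genes were beyond 2-fold.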
